A study of Mus musculus with 9 samples.

Results

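The genes described here are 8 transcription factor genes of the sclerotome and of tendon progenitors, Uncx, Foxc1, Foxc2, Nkx3-2, Sox9, Scx, Mkx and Twist1. They were found through the array annotation as every probe set whose only symbol was one of these names, which gave 12 of the 45037 probe sets tested and 8 of the 18193 genes measured. Expression was read on Affymetrix arrays as log2 RMA values in sorted cells of interlimb somites, taken from mouse embryos on embryonic day 9.5, with 3 samples in each of 3 groups and 9 in all. Cells of the Pax3PAX3-FKHR/GFP group carried the Pax3 GFP allele and, on the other chromosome, an allele producing PAX3-FKHR, the fusion oncoprotein of alveolar rhabdomyosarcoma, which replaces Pax3 there. Cells of the Pax3GFP/+ group carried the GFP allele and a wild-type Pax3 allele. Both were sorted for GFP fluorescence, which follows activity of the Pax3 locus. The third group, GFP-, was sorted from the same kind of tissue as cells without fluorescence. Its labels give no Pax3 genotype, the study's account of the screen takes these cells from Pax3GFP/+ embryos, and its array methods list a Pax3+/+ group in that place. Below, the groups are called PAX3-FKHR, GFP/+ and GFP- cells.

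Several features of the material limit these groups as models. PAX3-FKHR comes from the Pax3 locus after recombination by a PGK-Cre transgene, which acts throughout the embryo, so that neural crest and neural tube cells with an active Pax3 locus can carry it too. Each sample is RNA from embryos pooled by genotype, and the labels place the dissection in the hypaxial dermomyotome, which is not sclerotome, while their treatment protocol speaks of forelimb buds. A further limit of sorted bulk RNA is that fewer cells of a type and less RNA per cell cannot be told apart.

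The sclerotome is the ventral part of the somite, which leaves the epithelium under Sonic hedgehog from the notochord and floor plate and forms vertebrae and ribs. Pax1 and Pax9 mark it, Uncx marks its posterior portion and Tbx18 its anterior portion, Foxc1 and Foxc2 are forkhead factors needed for paraxial mesoderm and sclerotome, and Nkx3-2 and Sox9 lead sclerotome cells to cartilage. At the border with the myotome, FGF signals induce Scx in the syndetome, the source of axial tendons, where Mkx later promotes collagen production, while Twist1 is a basic helix-loop-helix factor of mesenchyme.

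Of the 8 genes, 4 had an entry in the RefSeq promoter table for GRCm38.p6 (Uncx, Foxc1, Nkx3-2 and Twist1). The 250 bases before the transcription start are printed for Uncx and Foxc1, the members with an entry that were called between PAX3-FKHR and GFP/+ cells, so that their letters can be read beside their opposite changes. Windows were searched on both strands for TAATTA, a homeodomain core, the palindromic dimer motif of paired-class homeodomains, GTCACG, a paired-domain core, and TGTTTA, a forkhead core. The Uncx window lies at chr5:139543648-139543897 on the plus strand and the Foxc1 window at chr13:31806396-31806645 on the plus strand. Capitals mark matches.
Uncx: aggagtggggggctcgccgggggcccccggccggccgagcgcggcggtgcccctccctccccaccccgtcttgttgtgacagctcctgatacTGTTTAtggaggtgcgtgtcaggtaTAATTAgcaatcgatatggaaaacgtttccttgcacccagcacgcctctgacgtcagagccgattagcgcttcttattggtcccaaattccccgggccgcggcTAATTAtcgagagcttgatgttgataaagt
Foxc1: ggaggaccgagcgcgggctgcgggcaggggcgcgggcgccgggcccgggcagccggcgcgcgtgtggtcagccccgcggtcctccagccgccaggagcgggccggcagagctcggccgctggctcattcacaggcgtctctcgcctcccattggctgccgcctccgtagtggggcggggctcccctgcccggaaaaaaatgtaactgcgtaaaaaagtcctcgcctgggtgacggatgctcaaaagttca
The Uncx window held TAATTA starting 133 and 30 bases before the start and TGTTTA starting 158 bases before it, and no match to either other motif. The Foxc1 window held none of the 4 motifs. Among all 32851 windows of this length 4.84% held TAATTA at least once, 0.444% held it at least 2 times, and 12% held TGTTTA. The dimer motif was found in 0.463% and GTCACG in 6.93% of them. GC content was 58.4% in the Uncx window and 70.8% in that of Foxc1. These matches are letters in a window, and binding was not measured.

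The arrays had medians of 4.63 to 4.68 on the log2 scale, and across probe sets the correlation within a group was 0.996 to 0.998. Their number, 3 per group, limits the precision. The study's methods call the 3 samples of a group biological replicates, without saying whether each came from its own pool of embryos, so a p-value reflects the spread between these samples alone. The signal for Pax3, the targeted locus, fell to 53.2% of its GFP/+ level with PAX3-FKHR (brightest probe set, 95% interval 46.7 to 60.5%). By the study's account, embryos with the PAX3-FKHR and GFP alleles do not transcribe mouse Pax3. What the remaining signal measures was not tested. In GFP/+ cells Pax3 was 25.9-fold higher than in GFP- cells by the same probe set, and 17.0-fold and 93.4-fold by the others. A probe set was called when its limma adjusted p was under 0.05 and its log2 values differed by 0.5 or more, which is 1.41-fold. The number after ± is the standard error of the log2 difference (n = 3 per group) unless named as SD.

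Of the 12 probe sets, 6 lay above the median of every array and 4 lay below it on all 9. Those below were the single Nkx3-2 probe set, both Scx probe sets and the dimmest of 3 Sox9 probe sets. The defining factor of tendon progenitors, Scx, and Nkx3-2 of the sclerotome thus had no signal above the array median in any group. For the tendon side of the set the data therefore rest on Mkx.

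**Figure D1:**
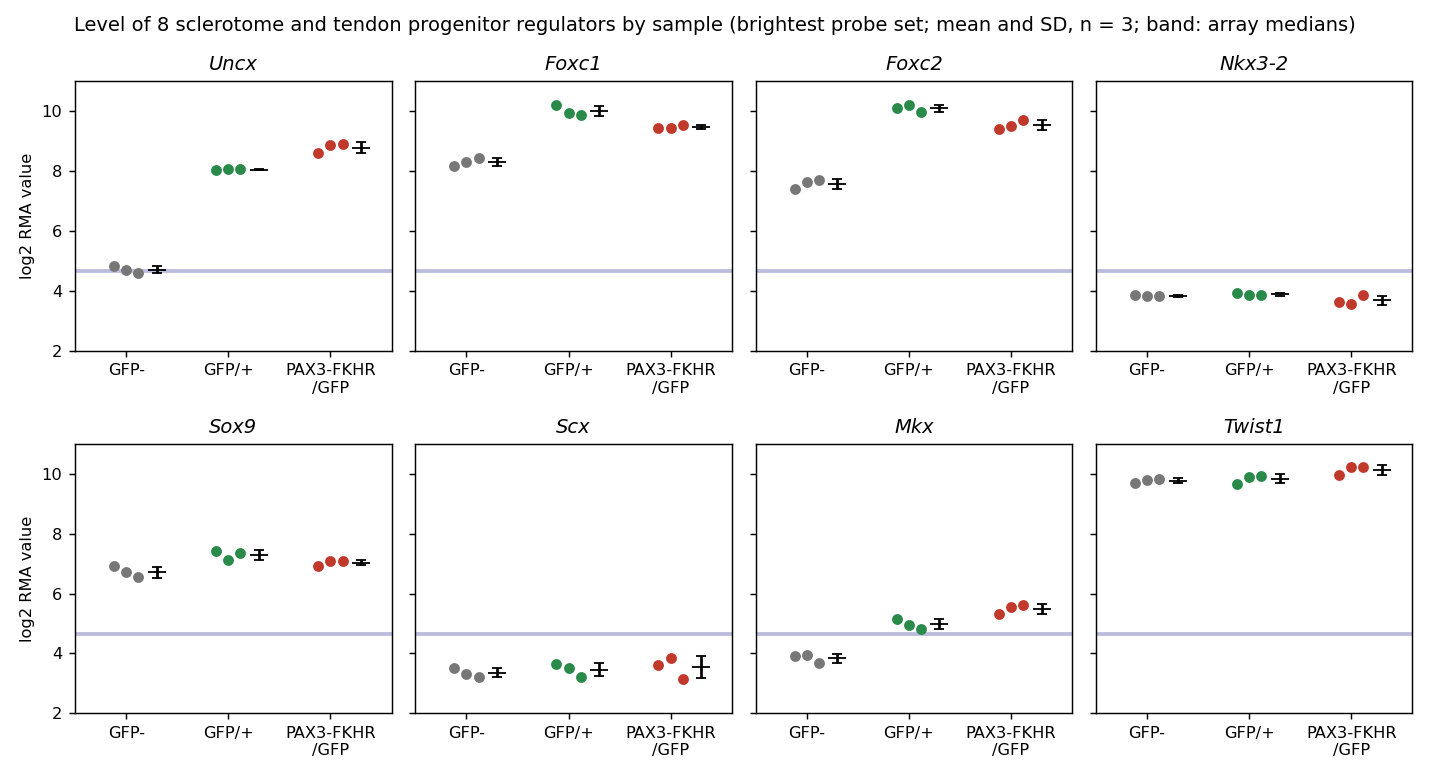
Log2 RMA value of the brightest probe set of each of the 8 genes in every sample (points), with mean and SD of n = 3 beside them and a band for the array medians of 4.63 to 4.68. Uncx steps up from GFP- to GFP/+ and again to PAX3-FKHR/GFP cells, Foxc1 and Foxc2 are highest in GFP/+ cells, and Nkx3-2 and Scx stay below the band in all 9 samples.

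Between PAX3-FKHR and GFP/+ cells, the comparison that asks what the fusion changes when it stands in for Pax3, Uncx rose and both forkhead genes fell. Of the 8 genes 1 was called higher and 2 lower, where 2.02% of all genes were called in either direction, 1.31% higher and 0.715% lower. Of the 12 probe sets 3 were called, against 1.36% of all probe sets, and in 7 of 12 the groups did not overlap, against 13.1% of all. Without any sample other than PAX3-FKHR replicate 3 the called genes went from 3 to 1, with both falls lost, and without that one they went to 2. The share of all genes called in those smaller fits was not determined. The median difference over the 8 genes was -0.06, and over all genes it was -0.0015.

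Between GFP/+ and GFP- cells, which asks what marks cells with an active Pax3 locus, 5 of the 8 genes were higher and 0 lower by limma, where 6.96% of all genes were called, 1.92% higher and 5.05% lower. No member was lower at an unadjusted p under 0.05 (0 of 8) or by the local pooled error test (0 of 8). Of the 12 probe sets 7 were called, against 4.65% of all, and 8 of 12 had groups that did not overlap, against 23%. The median difference was 0.86 over the 8 genes and 0.0078 over all genes. Between PAX3-FKHR and GFP- cells 4 of the 8 genes were called, all higher, and again 0 of 8 were lower at an unadjusted p under 0.05 or by the local pooled error test, where 7.83% of all genes were called, 2.63% higher and 5.2% lower. Of the probe sets 5 of 12 were called, against 5.35%, and 9 of 12 did not overlap, against 21.5%. The median was 0.76 over the 8 genes and 0.0072 over all. This last comparison shares its samples with both others and is not a further piece of evidence, so the values are set side by side. The study had itself listed Uncx, Foxc1, Foxc2 and Mkx from these arrays.

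**Figure D2:**
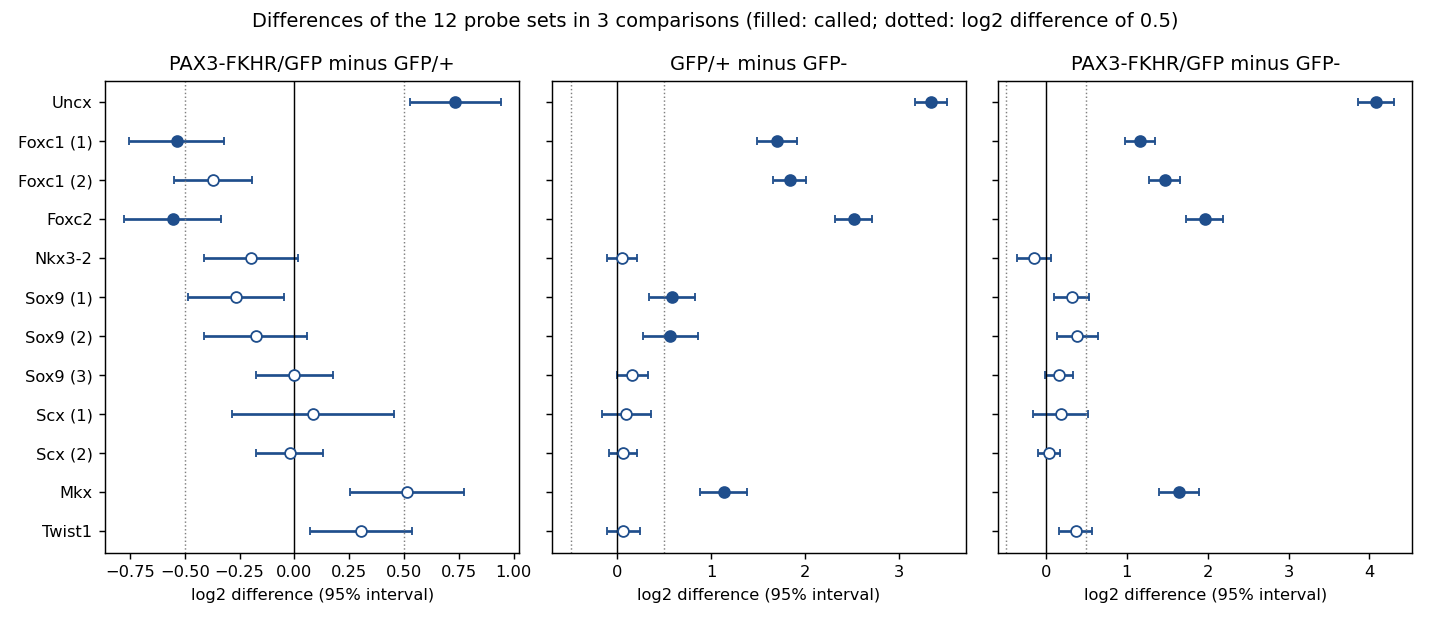
Log2 difference with its 95% interval for each of the 12 probe sets in 3 comparisons, filled where called, with dotted lines at a difference of 0.5 in either direction. Numbers in brackets tell apart probe sets of 1 gene, the brightest first. Uncx is to the right in all 3 panels, and Foxc1 and Foxc2 are to the left in the first panel and to the right in the others.

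Uncx, a homeobox gene of the posterior sclerotome, showed the largest difference of the 8 genes in each comparison by absolute size. Its log2 values were 8.59, 8.85 and 8.90 in PAX3-FKHR cells, 8.03, 8.05 and 8.05 in GFP/+ cells and 4.82, 4.70 and 4.59 in GFP- cells. The 3 groups did not overlap, and the GFP/+ samples had an SD of 0.0118. With PAX3-FKHR the level was 1.66-fold that of GFP/+ cells (log2 difference 0.73 ± 0.093, 95% interval 0.53 to 0.94, adjusted p = 0.00189), which ranked 132 from the top of 18193 genes. In GFP/+ cells it was at least 10.2-fold above GFP- cells (3.34 ± 0.077, adjusted p = 2.84e-09), rank 13. In PAX3-FKHR cells it was at least 16.9-fold above GFP- cells (4.08 ± 0.10, adjusted p = 4.85e-10), rank 9. In GFP- cells the signal was at the array median, so that both folds over GFP- cells are given as lower bounds. The call with PAX3-FKHR remained without each of the 6 samples in turn, with differences of 0.67 to 0.83 and adjusted p of 0.00097 to 0.034.

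Tbx18, the T-box gene of the anterior sclerotome, was set against Uncx within each sample. Tbx18 had mean log2 values of 7.14, 7.52 and 7.61 in PAX3-FKHR, GFP/+ and GFP- cells and was not called in any comparison (-0.38, -0.10 and -0.47, adjusted p = 0.162, 0.48 and 0.0122, the last under the limit on the difference). The Uncx value minus the Tbx18 value was 1.11 higher in PAX3-FKHR than in GFP/+ cells and 3.44 higher in GFP/+ than in GFP- cells, on the log2 scale. Most of both steps is the difference of Uncx itself, and the second starts from Uncx at the array median in GFP- cells, so these values are a description and add no support to the change in Uncx.

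Foxc2, a forkhead factor of the paraxial mesoderm and sclerotome, fell with PAX3-FKHR and was yet well above GFP- cells. Its values were 9.38, 9.52 and 9.70 in PAX3-FKHR cells, 10.11, 10.19 and 9.96 in GFP/+ cells and 7.39, 7.64 and 7.68 in GFP- cells. The 3 groups did not overlap. The level with PAX3-FKHR was 68.1% of that in GFP/+ cells (95% interval 58.4 to 79.4%, log2 difference -0.56 ± 0.10, adjusted p = 0.0179). It was 5.73-fold higher in GFP/+ than in GFP- cells (2.52 ± 0.089, adjusted p = 5.69e-08) and 3.90-fold higher in PAX3-FKHR than in GFP- cells (1.96 ± 0.10, adjusted p = 2.11e-07). The fall lost its call without any sample other than PAX3-FKHR replicate 3. Without PAX3-FKHR replicate 1 the difference was -0.48, under the limit (adjusted p = 0.0461). The adjusted p was 0.151 when PAX3-FKHR replicate 2 was left out, and 0.1, 0.155 and 0.0625 when GFP/+ replicate 1, 2 or 3 was.

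Foxc1, the paralogue of Foxc2 with overlapping roles in the somite, was read by a pair of probe sets. The brighter had values of 9.43, 9.42 and 9.53 in PAX3-FKHR cells, 10.19, 9.94 and 9.86 in GFP/+ cells and 8.17, 8.29 and 8.43 in GFP- cells. The groups did not overlap, with GFP/+ cells highest and GFP- cells lowest. It stood at 68.9% of the GFP/+ level with PAX3-FKHR (59.4 to 79.9%, -0.54 ± 0.097, adjusted p = 0.018), a fall that was called. The other probe set had values of 7.80, 7.96 and 7.88, then 8.33, 8.22 and 8.21, and then 6.29, 6.41 and 6.54 in the same order of groups. It did not overlap either and stood 0.37 lower (± 0.080, adjusted p = 0.0482), which is under the limit on the difference, so it was not called. Leaving out any of the 6 samples ended the Foxc1 call (differences of -0.61 to -0.44, adjusted p of 0.051 to 0.16), as did taking the mean of both probe sets (-0.45, adjusted p = 0.00771). Against GFP- cells the brighter probe set was 3.25-fold higher in GFP/+ cells (1.70 ± 0.094, adjusted p = 1.39e-06) and 2.24-fold higher in PAX3-FKHR cells (1.16 ± 0.083, adjusted p = 2.7e-06), and the other was 3.58-fold and 2.77-fold higher.

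Sox9, the HMG box factor that starts cartilage differentiation and is also used in neural crest and neural progenitors, was higher in GFP/+ than in GFP- cells. Its brightest probe set had values of 6.93, 7.07 and 7.09 in PAX3-FKHR cells, 7.42, 7.11 and 7.37 in GFP/+ cells and 6.90, 6.71 and 6.54 in GFP- cells. By this probe set the PAX3-FKHR samples lay between both other groups without overlap. GFP/+ cells were 0.58 ± 0.11 above GFP- cells on the log2 scale (adjusted p = 0.00807), and that of the next probe set was 0.56 ± 0.13 (adjusted p = 0.0244). The third, dim on every array, was not called (0.16 ± 0.073, adjusted p = 0.28). With PAX3-FKHR the brightest probe set gave -0.27 ± 0.099 (adjusted p = 0.352, interval -0.49 to -0.05) and was not called. The next (-0.18 ± 0.11, adjusted p = 0.657) and the third (0.0002 ± 0.079) overlapped with GFP/+ cells and were not called either. Against GFP- cells the brightest probe set gave 0.32 ± 0.10 in PAX3-FKHR cells (adjusted p = 0.0869). The call between GFP/+ and GFP- cells was lost without GFP/+ replicate 3 (adjusted p = 0.0596), GFP- replicate 2 (adjusted p = 0.0613) or GFP- replicate 3 (0.49, adjusted p = 0.0483), and with the mean of the 3 probe sets (0.43, adjusted p = 0.00422).

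Mkx, an Iroquois-related homeobox factor of tendon, was the tendon gene with a measurable step. Its values were 5.31, 5.54 and 5.63 in PAX3-FKHR cells, 5.16, 4.95 and 4.83 in GFP/+ cells and 3.93, 3.94 and 3.67 in GFP- cells. The groups did not overlap, and the GFP- samples lay below the array median, at about the level of Nkx3-2. Folds over GFP- cells are therefore lower bounds. GFP/+ cells were at least 2.19-fold above GFP- cells (1.13 ± 0.11, adjusted p = 0.000104), and PAX3-FKHR cells were at least 3.14-fold above them (1.65 ± 0.11, adjusted p = 1.78e-06). Between PAX3-FKHR and GFP/+ cells the difference of 0.52 ± 0.12 (1.43-fold, interval 0.26 to 0.78) did not pass the test (adjusted p = 0.0619). It passed with all 9 samples in 1 fit (adjusted p = 0.0272), with dim probe sets left out (adjusted p = 0.0295), with gene means over probe sets (adjusted p = 0.0258) and by the local pooled error test that the study names (adjusted p = 0.0139). It did not pass in the other 9 of 13 alternatives. These were the replicate block (adjusted p = 0.126), no trend (0.0545), median centring (0.0533) and each sample left out in turn (0.055 to 0.301).

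Twist1, Nkx3-2 and Scx were not called in any comparison. Twist1 had values of 9.95, 10.23 and 10.22 in PAX3-FKHR cells, 9.66, 9.90 and 9.92 in GFP/+ cells and 9.68, 9.80 and 9.82 in GFP- cells. GFP/+ and GFP- cells overlapped, with a difference of 0.06 ± 0.077 (interval -0.11 to 0.24, adjusted p = 0.715), while the PAX3-FKHR samples all lay above both groups. Those differences were 0.30 ± 0.11 against GFP/+ (adjusted p = 0.306) and 0.37 ± 0.093 against GFP- cells (adjusted p = 0.0319, under the limit on the difference). Nkx3-2 had values of 3.64, 3.54 and 3.86 in PAX3-FKHR cells, 3.93, 3.84 and 3.86 in GFP/+ cells and 3.86, 3.81 and 3.81 in GFP- cells, and the groups overlapped. The brighter Scx probe set had values of 3.62, 3.86 and 3.14 in PAX3-FKHR cells, 3.64, 3.50 and 3.22 in GFP/+ cells and 3.52, 3.33 and 3.23 in GFP- cells, again overlapping. The largest absolute difference of Nkx3-2 was -0.20 and that of the brighter Scx probe set 0.18. Below the array median a change can pass unseen, so these values say nothing on small amounts of either transcript.

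Other genes of the sclerotome and paraxial mesoderm were read from a list of 12, of which 10 were measured and the rest were not analysed here. With PAX3-FKHR 1 of the 10 rose and 3 fell, with a median of -0.22, where 1.31% of all genes rose and 0.715% fell. Pax1, the paired-box gene of the sclerotome, fell by 0.57 (SE 0.086, adjusted p = 0.00598), to 67.4% of its GFP/+ level. Zbtb16, a zinc finger repressor, and Tbx22, a T-box gene that was below the median on all 9 arrays, fell too (-0.56 each, adjusted p = 0.0128 and 0.0127). Tcf15, the paraxial mesoderm factor paraxis, rose 1.89-fold (0.92 ± 0.096, adjusted p = 0.000485). Pax9 (-0.26 ± 0.10, adjusted p = 0.331) was not called. The 3 falls became 0 without PAX3-FKHR replicate 2 or GFP/+ replicate 3 and 1 without PAX3-FKHR replicate 1 or GFP/+ replicate 1 or 2. The Pax1 call ended when PAX3-FKHR replicate 2, or replicate 2 or 3 of GFP/+, was left out (adjusted p of 0.0647 to 0.0709) and with the mean of its probe sets (-0.47). Zbtb16 came under the limit with the mean of its probe sets as well (-0.36, adjusted p = 0.0181).

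In GFP/+ relative to GFP- cells 6 of the same 10 genes were higher and 0 lower (limma, and 0 by the local pooled error test). Their median was 0.94, and of all genes 1.92% were higher and 5.05% lower. At an unadjusted p under 0.05 1 of the 10 was lower, Zbtb16, under the limit on the difference (-0.43, adjusted p = 0.00293). The highest were Meox2 (3.85), a homeobox gene of the somite, Tcf15 (3.38) and Pax1 (3.09 ± 0.081, 8.51-fold), and Pax9 was higher by 0.70. In PAX3-FKHR against GFP- cells 5 of the 10 were higher and 1 lower, where 2.63% of all genes were higher and 5.2% lower. Tcf15 stood at 4.30, Meox2 at 4.22, Meox1, the relative of Meox2, at 2.76 and Pax1 at 2.52, while Zbtb16 was 0.98 lower. Transcripts of the sclerotome marker Pax1 were thus measured in the GFP+ samples, whose labels name the dermomyotome. The study had reported this too. It proposes that cells of the ventral somite were probably included, perhaps because GFP persisted in them. That was not tested here.

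Of 14 cartilage genes measured, 0 rose and 1 fell with PAX3-FKHR by limma, where 1.31% of all genes rose and 0.715% fell. Of the 14, 0 were higher at an unadjusted p under 0.05 or by the local pooled error test, and 6 of the 14 lay below the array median throughout. Col9a1, a collagen of cartilage matrix, fell by 0.67 (SE 0.10, adjusted p = 0.00727) and lost its call when PAX3-FKHR replicate 2 or GFP/+ replicate 1 or 2 was left out (adjusted p of 0.0504 to 0.0869). Col2a1, the main cartilage collagen and a direct Sox9 target, stood 0.50 lower at an adjusted p of 0.0177, just short of the limit on the difference. Sox5 and Sox6, partners of Sox9, were at -0.28 and -0.22 and were not called. Between GFP/+ and GFP- cells Col9a1 (0.92), Sox5 (0.87) and Col2a1 (0.87) were higher, as Sox9 was, Hapln1, a hyaluronan link protein, was lower (-2.34), and Sox6 was not called (-0.25). These are 3 of 14 higher and 1 lower, where 1.92% of all genes were higher and 5.05% lower. Relative to GFP- cells, PAX3-FKHR cells had Sox5 higher (0.59) and Hapln1 lower (-2.41), while Col2a1 (0.37) and Sox6 (-0.48) were not called. With the mean over its probe sets Sox5 came under the limit in both comparisons (0.46 and 0.35).

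Tendon genes were divided in direction. Of 18 measured, 2 rose and 2 fell with PAX3-FKHR, with a median of -0.09, where 1.31% of all genes rose and 0.715% fell. Egr2, an immediate early zinc finger gene also used in tendon, rose by 1.39 (SE 0.10, adjusted p = 3.6e-05), and Tnc, the matrix protein tenascin C, by 0.93 (SE 0.12, adjusted p = 0.00179). Fmod, the proteoglycan fibromodulin, fell by 0.77 (SE 0.085, adjusted p = 0.000685) and Ebf2, an early B cell factor, by 0.63 (SE 0.083, adjusted p = 0.00244). Tnmd, the marker of differentiated tendon, lay below the median on all 9 arrays and was not called (0.09). With the mean over their probe sets Fmod (-0.49) and Tnc (0.48) came under the limit. Between GFP/+ and GFP- cells 5 of the 18 were higher, led by Fmod (2.39), Ebf2 (1.74) and Ebf3 (1.21), and 4 were lower, led by Tnc (-2.17), Dcn, which encodes decorin (-2.08), and Thbs4, a thrombospondin (-0.83). Of all genes 1.92% were higher and 5.05% lower. In PAX3-FKHR relative to GFP- cells 6 of the 18 were higher and 5 lower, where 2.63% of all genes were higher and 5.2% lower. Among the called tendon genes were Egr2 (1.66), Fmod (1.61), Ebf3 (1.28), Dcn (-2.55), Tnc (-1.24) and Thbs4 (-0.76).

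The FGF and TGF-beta pathways, which induce tendon progenitors, were read from 13 genes for ligands, receptors and downstream factors. Of these 5 rose and 0 fell with PAX3-FKHR (limma), where 1.31% of all genes rose and 0.715% fell. The median difference was 0.43. None, 0 of 13, was lower at an unadjusted p under 0.05 or by the local pooled error test. Spry1, an FGF feedback inhibitor, rose by 1.62 (SE 0.09), Etv5, an ETS factor induced by FGF, by 1.58 (SE 0.10), Fgf8, the ligand itself, by 1.46 (SE 0.19), Tgfb2 by 0.77 and Etv4 by 0.50. Fgf8 was below the median on 7 of the 9 arrays, and Etv4 lost its call in all 6 fits without a sample (adjusted p of 0.0985 to 0.151). Etv4 was not called by the local pooled error test either (0.42, adjusted p = 0.207), by which 4 of the 13 rose. With the mean over its probe sets it came under the limit (0.34). Scx, which FGF signals induce in the syndetome, was at 0.09 in the same comparison. Both of its probe sets lay below the median on all 9 arrays, where a change can pass unseen. Tgfb3 was higher in GFP/+ than in GFP- cells (1.18), and Etv5 (-0.98) and Tgfb2 (-0.97) were lower, of which Etv5 came under the limit with the mean over its probe sets (-0.45). Relative to GFP- cells 6 of the 13 were higher with PAX3-FKHR, Fgf8 (1.38), Tgfb3 (1.34) and Spry1 (1.26) the most, and 0 were lower (0 also by the local pooled error test, and 2, Tgfb2 and Tgfbr2, at an unadjusted p under 0.05). Of all genes 2.63% were higher and 5.2% lower.

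Of 14 Hedgehog and BMP pathway genes, which set the sclerotome, 3 rose and 0 fell with PAX3-FKHR (limma, and 0 by the local pooled error test). Of all genes 1.31% rose and 0.715% fell. At an unadjusted p under 0.05 2 of the 14 were lower, Bmp4 and Gli1. The 3 were Boc (0.86 ± 0.09) and Cdon (0.79 ± 0.10), co-receptors for Hedgehog ligands, and Grem1, a BMP antagonist (0.68 ± 0.13, call lost without any sample other than PAX3-FKHR replicate 3). Boc fell short of the limit (0.44) when all of its probe sets were averaged. The transcriptional readouts of Hedgehog signalling, Ptch1 (0.04 ± 0.11) and Gli1 (-0.23 ± 0.08), were not called. Bmp4, a BMP ligand, was not called either (-0.42 ± 0.10, adjusted p = 0.0724). Among GFP/+ against GFP- cells Boc (1.70) and Grem1 (0.68) were higher, and Shh (-4.06), Bmp4 (-2.79) and Sfrp2, a secreted Wnt antagonist (-0.52), were lower. That was 2 of 14 higher and 3 of 14 lower, where 1.92% of all genes were higher and 5.05% lower. Of these 5 calls 3 were left when GFP/+ replicate 2 or 3 or GFP- replicate 3 was left out, with Grem1 (adjusted p = 0.13, 0.125 and 0.112) and Sfrp2 (adjusted p = 0.102, 0.154 and 0.14) lost. Sfrp2 also lost its call without GFP/+ replicate 1 (adjusted p = 0.092) or GFP- replicate 2 (adjusted p = 0.178). Grem1 lost its call without GFP- replicate 1 too (adjusted p = 0.106). Ptch1 (-0.48, adjusted p = 0.00115) and Gli1 (0.10) were not called between GFP/+ and GFP- cells. PAX3-FKHR against GFP- cells gave 4 higher and 2 lower, where 2.63% of all genes were higher and 5.2% lower. Boc stood at 2.56, Grem1 at 1.36, Cdon at 1.18, Shh at -4.07 and Bmp4 at -3.21.

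Among 23 relatives and partners of the 8 factors 2 rose and 1 fell with PAX3-FKHR, where 1.31% of all genes rose and 0.715% fell. Foxd1, a forkhead gene, fell by 0.81 (SE 0.10, adjusted p = 0.00184), Tcf15, a basic helix-loop-helix relative of Scx, rose as given above, and Prrx1, a homeobox gene of mesenchyme, rose by 0.65 (SE 0.11, adjusted p = 0.0127), with its call lost when PAX3-FKHR replicate 2 or any GFP/+ sample was left out (adjusted p of 0.0839 to 0.116). With the mean over its probe sets Prrx1 came under the limit (0.46). Twist2, the paralogue of Twist1, was at -0.20 and not called. GFP/+ against GFP- cells gave 4 higher and 9 lower, where 1.92% of all genes were higher and 5.05% lower. Sox10, a relative of Sox9 from neural crest, stood at 3.43 and Foxd1 at 1.99, while Hand2 (-4.51) and Tcf21 (-4.13), basic helix-loop-helix genes of lateral and visceral mesoderm, and Msc, or musculin (-1.60), were lower. For PAX3-FKHR against GFP- cells the counts were again 4 and 9, where 2.63% of all genes were higher and 5.2% lower. Sox10 stood at 3.57, Foxd1 at 1.18, Hand2 at -4.64, Tcf21 at -4.15, Irx5, a homeobox gene, at -1.82 and Twist2 at -0.63. Each of the 6 lists is described by its counts and median, with no test of a list.

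**Figure D3:**
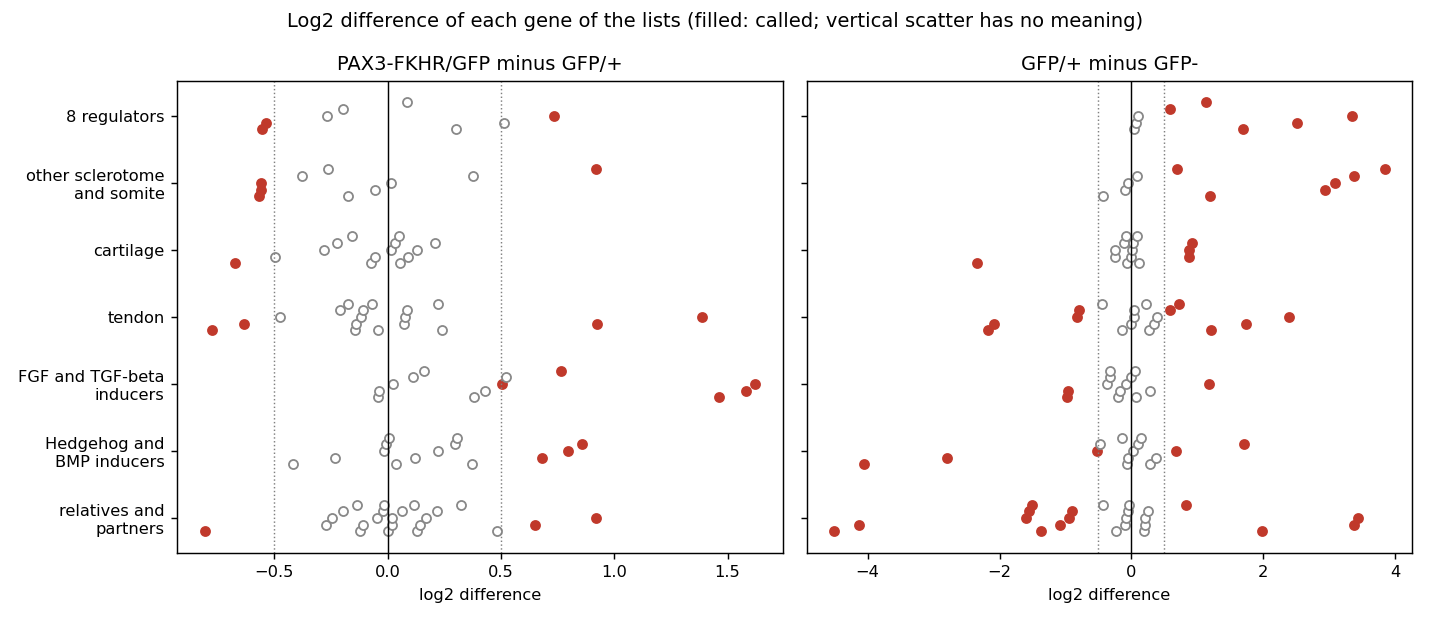
Log2 difference of each measured gene of the 8 regulators and of the 6 lists, between PAX3-FKHR/GFP and GFP/+ cells (left) and between GFP/+ and GFP- cells (right), filled where called, with dotted lines at a difference of 0.5 in either direction. On the left the FGF and TGF-beta list has 5 filled points to the right and 0 to the left, and the other sclerotome and somite genes have 1 to the right and 3 to the left.

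Markers of other cell types moved with the same groups. Given as the sum of linear values over a list, 10 endothelial markers ran from 797 to 831 in PAX3-FKHR samples, 847 to 884 in GFP/+ samples and 1182 to 1202 in GFP- samples, with 6 of the 10 lower in GFP/+ than in GFP- cells. The 11 markers of lateral mesoderm and limb ran from 684 to 837, 601 to 623 and 2971 to 3000, with 9 of 11 lower in GFP/+ cells. The 6 neural crest markers ran the other way, from 2963 to 3558, 2448 to 2609 and 854 to 873, with 5 of 6 higher in GFP/+ than in GFP- cells and 1 of 6, Tfap2b, higher with PAX3-FKHR. The GFP- cells thus held more transcripts of tissues that lack an active Pax3 locus, and the GFP+ cells more of the neural crest. Most myotome and dermomyotome markers were higher in GFP/+ than in GFP- cells too. The 10 myotome markers ran from 1721 to 1990 in PAX3-FKHR samples, 3279 to 3568 in GFP/+ samples and 1238 to 1322 in GFP- samples, with 8 of 10 lower and 1, Myf5, higher with PAX3-FKHR. Of 10 dermomyotome markers 3 rose and 2 fell with PAX3-FKHR, and 2 lay below the median on all 9 arrays. They summed to 2388 to 2773 in PAX3-FKHR samples, 2112 to 2238 in GFP/+ samples and 985 to 1057 in GFP- samples. Between GFP/+ and GFP- cells 7 of these 10 were higher and 1 lower, with a median difference of 1.37. Of the myotome markers 8 of 10 were higher there, with a median of 2.64. The median of the 8 genes was 0.86. The 5 erythroid markers were all lower in GFP/+ than in GFP- cells, as were 6 of 8 of surface ectoderm and 4 of 9 of neural tube, where 1 of 9 was higher. Some of these lists moved with PAX3-FKHR too. The neural tube markers summed to 1872 to 2213 in PAX3-FKHR samples, 1162 to 1193 in GFP/+ samples and 1577 to 1616 in GFP- samples, with 2 of 9 higher and 2 lower with PAX3-FKHR. The erythroid markers summed to 1926 to 2240, 1380 to 1450 and 36169 to 36418, with 1 of 5 higher with PAX3-FKHR. Of the lateral mesoderm and limb markers 1 of 11 was higher with PAX3-FKHR, Prrx1, which is also among the relatives and partners above. Surface ectoderm markers summed to 425 to 498 in PAX3-FKHR against 411 to 437 in GFP/+ samples. Of all genes 1.92% were higher and 5.05% lower in GFP/+ than in GFP- cells, and 1.31% rose and 0.715% fell with PAX3-FKHR. The part of these cell types in the differences of the 8 genes was not tested.

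The genes whose centred log2 profile over the 9 samples was nearest to that of a called member were found among 18192 others, by the root mean square difference. For Uncx, whose own root mean square around its mean was 1.78, these were Pax7 (0.109), the paralogue of Pax3, Tcf15 (0.167) and Meox2 (0.223). For Foxc1 (0.717) they were Sim1 (0.107), a marker of lateral dermomyotome, Chst1 (0.114), a sulfotransferase, and Selenop (0.13), a selenium carrier. For Foxc2 (1.09) they were Heyl (0.155), a Notch target, Fmod (0.206) and the gene model Gm2102 (0.232). For Sox9 (0.268) they were Rbms3 (0.0653), an RNA-binding protein, Baiap2l1 (0.0661) and Tspan18 (0.0932), a tetraspanin. For Mkx (0.701) they were Phlda1 (0.128), Cck (0.129), which encodes cholecystokinin, and Shisa2 (0.135). Among the called members themselves Foxc1 and Foxc2 were nearest (0.394), and Uncx was 0.882 from Foxc2 and 1.2 from Foxc1. These distances describe 9 samples in 3 groups and carry no test.

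**Figure D4:**
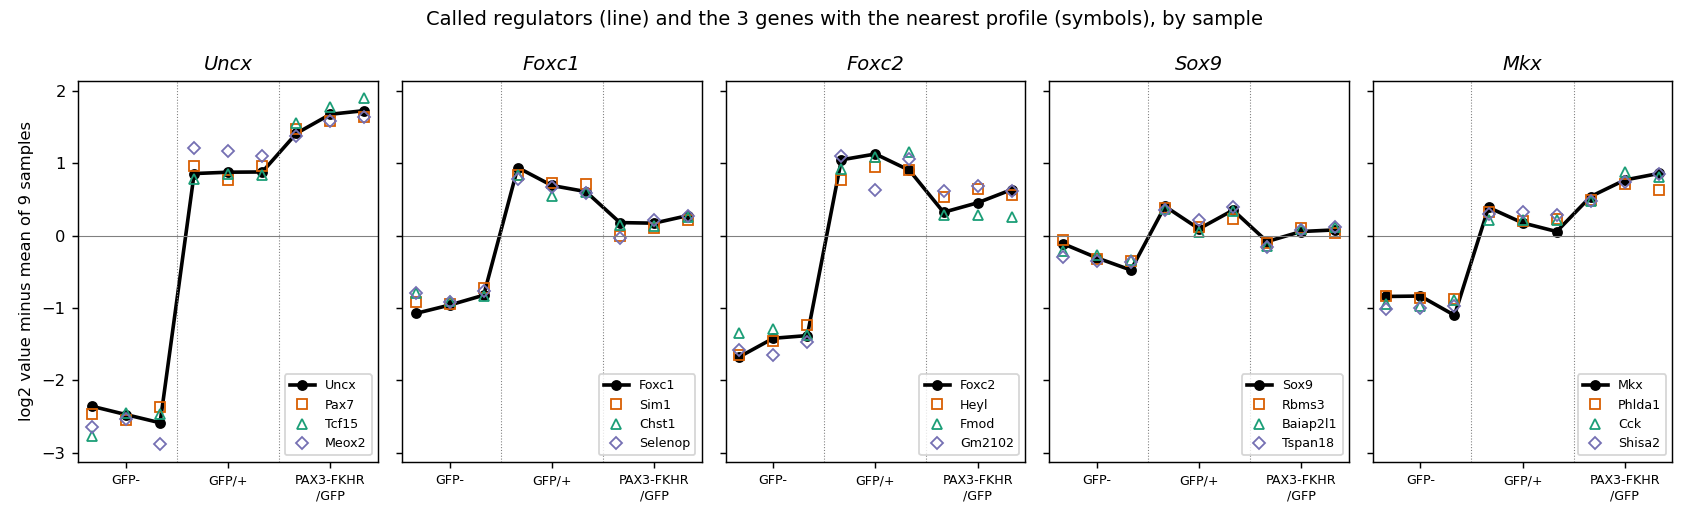
Log2 value minus the mean of 9 samples, by sample and group, for the 5 members called in at least 1 comparison (black line, joined to guide the eye) and the 3 genes nearest to each (symbols). Uncx and its nearest genes climb over the 3 groups, while Foxc1 and Foxc2 and theirs have their highest mean in GFP/+ cells. For Gm2102 these groups overlap, with GFP/+ replicate 2 at 0.63 and PAX3-FKHR/GFP replicate 2 at 0.69.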

How the data were processed

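The authors deposited log2 values from RMA, which subtracts background, quantile normalizes and summarizes probes into sets. The RMA version is not given in the sources used here, nor which arrays it was run on together. Quantile normalization hides any shift common to all transcripts of a group. RNA had passed a two-cycle 3′ amplification. Probe sets called absent were discarded by the study but not here.

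Of 45101 probe sets 45037 remained after 64 Affymetrix controls. Among these 34945 had 1 symbol in the platform annotation, 932 had several and 9160 were unnamed, and 18193 genes were each read from the single-symbol probe set with the highest mean over 9 arrays. The probe set of Scx ending in x_at can be shared between transcripts. Groups follow the labels for genotype and fluorescence. The test was limma 3.58.1 (R 4.3.3), with lmFit and a trended eBayes, two-sided, on the 6 samples of a comparison, with Benjamini-Hochberg adjustment over 45037 probe sets. The fit was tested on simulated data. Alternatives were a fit of all 9 samples, a replicate block, no trend, the local pooled error test, no dim probe sets (higher group mean at least 5), median centring, no fold limit, a log2 limit of 1, each sample left out, and probe set means. Same-numbered samples of different groups did not deviate together (correlations of -0.0957 to 0.105, against -0.115 to 0.121 for different numbers).

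The members and lists were chosen with earlier results of these data known. Named from each list were up to 3 called genes of largest difference per direction and comparison, with Pax1, Pax9, Tbx18, Sox5, Sox6, Col2a1, Tnmd, Ptch1, Gli1, Twist2 and Tcf15 always, and the 3 nearest profiles of each called member. Bmp4, Gli1 and Tgfbr2 as genes below a threshold, and Tfap2b and Myf5, were named after their values were seen. Promoter windows are those of RefSeq on GRCm38.p6. Protein sequences were not analysed here.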

Additional observations from a re-analysis of the deposited data

How the results depend on the processing

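Of 24 differences, 8 genes in 3 comparisons, 19 kept their direction and their side of the threshold under the alternatives that kept the log2 limit of 0.5. The others were Foxc1, Foxc2, Mkx and Scx between PAX3-FKHR and GFP/+ cells and Sox9 between GFP/+ and GFP- cells. With a limit of 1 the Uncx call with PAX3-FKHR was lost as well, and with no limit Twist1 was called between PAX3-FKHR and GFP- cells. The count of genes called with PAX3-FKHR, 3, was 1 to 2 without each sample in turn and 0 with a log2 limit of 1, and so was the count of probe sets, 3. The 2 were reached without PAX3-FKHR replicate 3. Both counts were 4 with all 9 samples in 1 fit, with the local pooled error test and with dim probe sets left out. With probe set means 3 genes were called, 2 higher and 1 lower. Between GFP/+ and GFP- cells the counts of 5 genes and 7 probe sets became 4 to 5 and 5 to 7, and between PAX3-FKHR and GFP- cells 4 genes became 4 to 5 and 5 probe sets 5 to 6. Scx, 0.09 with PAX3-FKHR, ran from -0.072 (PAX3-FKHR replicate 2 left out) to 0.285 (PAX3-FKHR replicate 3 left out) and was -0.03 without GFP/+ replicate 3. With the replicate block, which shares only numbers between samples, the counts of genes stayed at 3, 5 and 4 and of probe sets at 3, 7 and 5, and Etv4 lost its call (adjusted p = 0.0507). With dim probe sets left out Mkx was not tested between GFP/+ and GFP- cells. Leaving out a sample leaves fewer samples per fit. Shares of all genes and probe sets called were taken from the main fit only. A loss of calls particular to these genes therefore cannot be told from a general one. Signal over background limits Nkx3-2, Scx, the third Sox9 probe set, and Mkx and Uncx in GFP- cells.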
